A study of Mus musculus with 6 samples.

Results

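The genes examined here encode the subunits of cohesin and a protein that protects it. They were found as the transcript clusters annotated to 10 listed symbols: the meiotic subunits Smc1b, Rec8, Rad21l and Stag3, the general subunits Smc1a, Smc3, Rad21, Stag1 and Stag2, and the protector Sgo2a. All 10 were found, on 11 clusters, among 19938 genes with a single-gene cluster on Affymetrix Gene 1.0 ST arrays. Rad21l had 2 clusters and the brighter one was used. All 10 were among the 17925 genes that reached log2 6 on at least 1 array and were tested.

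The arrays measured total RNA of germ cells from mice of C57BL/6 background, either wild type (WT) or carrying the RNF8-KO genotype (KO), which lacks a histone ubiquitin ligase. Pachytene spermatocytes, the cells of meiotic prophase, gave 2 WT and 2 KO arrays. Round spermatids, the haploid cells after the meiotic divisions, gave 1 WT and 1 KO array. Both are titled replicate 2, and no spermatid array titled replicate 1 is among the samples. Cells of 3 to 4 males were enriched by sedimentation to a stated purity over 95%, and neither the allele nor the age of the animals is in the labels used. No label ties arrays to separate preparations. The p-values therefore reflect the spread among these arrays alone, and that spread may be technical.

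Cohesin is a ring that holds sister chromatids together. Its core is a pair of SMC proteins (Smc1 and Smc3) closed by a kleisin (Rad21, Rec8 or Rad21l) and bound by a Stag subunit. Germ cells entering meiosis add the forms Smc1b, Rec8, Rad21l and Stag3, on which chromosome axes and the pairing of homologues depend. At the first division separase cuts Rec8 along the arms, while Sgo2a, shugoshin, brings a phosphatase that shields Rec8 at centromeres until the second division. Smc1a and Stag2 lie on the X chromosome, which is silenced in pachytene spermatocytes, and the other 8 members lie on autosomes.

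Meiotic and general subunits did not separate as classes between the cell types. Of the 10 genes, 5 rose in round spermatids (Rec8, Rad21l, Smc3, Rad21 and Stag2), Sgo2a fell, and 4 did not pass (limma, additive fit of genotype and cell type, Benjamini-Hochberg adjusted p under 0.05). The rises covered 2 of 4 meiotic and 3 of 5 general subunits. Over all tested genes 34.9% passed, 17.8% as higher and 17.1% as lower. Both spermatid arrays lay above all pachytene arrays for 6 members, against 24.1% of all genes, and below them for 1, against 26.4%. Values are log2 intensity unless stated, and arrays put on a common scale show a transcript's share of the RNA, not its amount per cell. In such bulk samples, fewer cells of a type and less RNA per cell cannot be told apart.

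**Figure D1:**
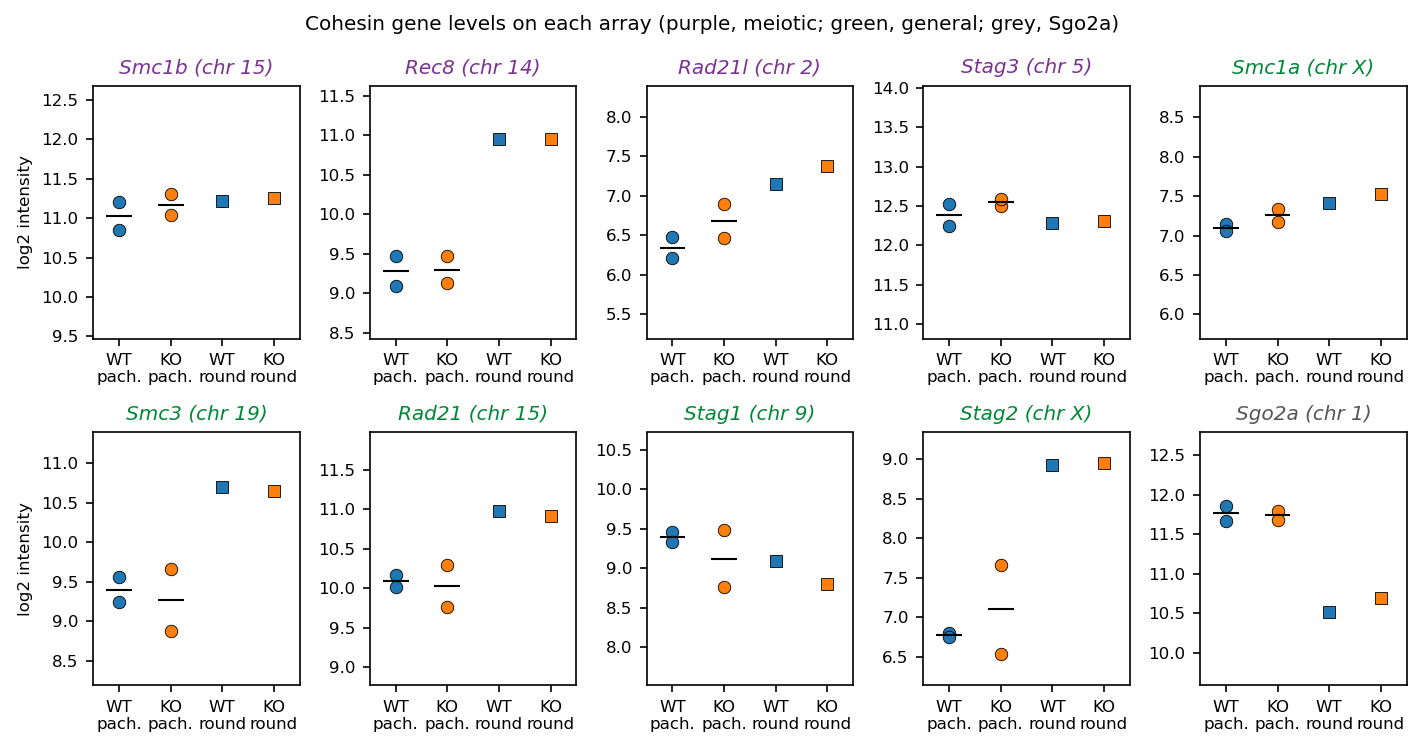
Log2 intensity (vertical axes, each spanning the same range) of each cohesin gene on the 6 arrays by group, with circles for pachytene and squares for round spermatid arrays and a bar at the mean of each pachytene pair. Rec8, Rad21l, Smc1a, Smc3, Rad21 and Stag2 lay higher on both round spermatid arrays than on any pachytene array, and Sgo2a lay lower.

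The promoters of 6 members are shown because 1 short element occurs in some of them and not in others. Of the 10 genes, 8 had a RefSeq promoter (GRCm38.p6, 250 bases before to 50 after the transcript start), and Rad21 and Stag2 were not analysed here. The element is TTCCCGC, the core of sites bound by E2F factors, searched, like the others below, on both strands; among these factors E2F6 is a repressor known to silence meiotic genes such as Stag3 and Smc1b in somatic cells. In the sequences below, written 5′ to 3′ on the gene's strand, capitals mark that core.
Smc1b, chr15:85131908-85132207, minus strand: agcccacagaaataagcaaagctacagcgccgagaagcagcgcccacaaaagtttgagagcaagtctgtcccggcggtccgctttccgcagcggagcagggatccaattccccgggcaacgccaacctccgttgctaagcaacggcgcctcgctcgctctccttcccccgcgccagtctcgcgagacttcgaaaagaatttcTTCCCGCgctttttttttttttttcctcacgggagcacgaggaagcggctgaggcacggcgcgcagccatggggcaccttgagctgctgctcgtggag
Stag3, chr5:138280259-138280558, plus strand: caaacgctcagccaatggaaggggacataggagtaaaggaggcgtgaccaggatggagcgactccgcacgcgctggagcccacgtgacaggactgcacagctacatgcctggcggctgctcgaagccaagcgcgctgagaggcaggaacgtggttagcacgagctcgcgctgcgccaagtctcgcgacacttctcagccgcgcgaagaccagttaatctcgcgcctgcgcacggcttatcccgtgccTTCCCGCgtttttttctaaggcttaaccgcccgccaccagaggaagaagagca
Stag1, chr9:100643198-100643497, plus strand: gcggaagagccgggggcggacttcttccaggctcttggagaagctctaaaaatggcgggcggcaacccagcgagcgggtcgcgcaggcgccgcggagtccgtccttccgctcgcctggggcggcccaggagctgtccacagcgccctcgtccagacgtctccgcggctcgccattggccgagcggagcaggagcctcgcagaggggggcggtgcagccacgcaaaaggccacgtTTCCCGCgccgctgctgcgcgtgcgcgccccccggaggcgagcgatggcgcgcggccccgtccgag
Sgo2a, chr1:57985090-57985389, plus strand: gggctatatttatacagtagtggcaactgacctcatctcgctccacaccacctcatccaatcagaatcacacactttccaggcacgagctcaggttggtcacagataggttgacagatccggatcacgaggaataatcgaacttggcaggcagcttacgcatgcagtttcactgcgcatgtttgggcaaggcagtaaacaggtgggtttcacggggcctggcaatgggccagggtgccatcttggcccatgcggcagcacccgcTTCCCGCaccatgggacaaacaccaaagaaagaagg
Rec8, chr14:55617916-55618215, plus strand: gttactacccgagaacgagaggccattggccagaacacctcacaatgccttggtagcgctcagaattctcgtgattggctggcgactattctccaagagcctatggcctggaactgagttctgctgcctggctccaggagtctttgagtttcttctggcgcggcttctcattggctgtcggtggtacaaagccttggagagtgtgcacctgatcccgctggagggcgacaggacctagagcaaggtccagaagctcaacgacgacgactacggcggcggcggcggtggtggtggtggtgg
Smc3, chr19:53600146-53600445, plus strand: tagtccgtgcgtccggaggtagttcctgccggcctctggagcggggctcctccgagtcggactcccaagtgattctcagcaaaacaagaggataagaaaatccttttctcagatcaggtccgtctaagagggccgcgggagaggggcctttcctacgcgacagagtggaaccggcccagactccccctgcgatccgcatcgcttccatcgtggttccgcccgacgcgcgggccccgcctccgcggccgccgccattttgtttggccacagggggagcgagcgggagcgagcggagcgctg
The core started 48 bases before the transcript start in Smc1b, 3 before it in Stag3 and 16 before it in Stag1, and at base 15 after it in Sgo2a. A match also lay at base 39 after the start of Smc1a, whose promoter is not printed. These letters occur in 4.63% of 32544 promoters of the same length, and in 8.05% of those with at least the median GC content of 53.0%. Of the 5 members with the core, 0 passed as higher in round spermatids, 1 (Sgo2a) passed as lower and 4 did not pass. All 3 members with a promoter but no such match (Rec8, Rad21l and Smc3) passed as higher. This split depends on the threshold. Smc1a, with the core, lay higher on both spermatid arrays than on any pachytene array (limma, adjusted p = 0.0706) and passed under some alternatives. Rad21l, without it, did not pass with either spermatid array left out. The remaining risers, Rad21 and Stag2, were not among the 8. Over all tested genes with a promoter, 17.8% of those with the core and 18.5% of those without it passed as higher. The Rad21l promoter differed from the rest in base composition, with 29.0% GC against 54.0% to 73.7% in the windows printed. A second Sgo2a promoter held no match.

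The E-box CACGTG, found in 7.17% of promoters, occurred only in Stag3 among the 8. The CCAAT box (CCAAT, 37.4% of promoters) occurred in 7 of the 8 members, with 3 copies in Rec8. The cAMP response element TGACGTCA (1.8% of promoters) occurred in 0 of the 8, the MYB motif (TAACNG or CAACNG, 49.6%) in 4, and the TATA box TATAAA (13.6%) in Sgo2a. These 6 motifs were chosen after the members' values were known. A match describes letters in a window and is neither a binding site nor a cause.

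Rec8, the kleisin that separase cuts in meiosis, rose most among the meiotic subunits. Its log2 intensity was 9.47 and 9.09 on the WT and 9.47 and 9.13 on the KO pachytene arrays, against 10.96 and 10.95 on the WT and KO round spermatid arrays. The round spermatid arrays were nearly equal and lay far above all 4 pachytene arrays. The difference was 1.67 (SE 0.15, 95% interval 1.32 to 2.01), a 3.17-fold rise (limma, adjusted p = 2.17e-04). It was 1.68 within WT and 1.65 within KO. Of all tested genes, 98.6% had a lower difference.

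Rad21l, the other meiotic kleisin, was the dimmest member. Its pachytene values were 6.21 and 6.48 in WT and 6.89 and 6.46 in KO, close to the lower quartile of the arrays, which ran from 6.15 to 6.28. The round spermatid arrays gave 7.15 (WT) and 7.38 (KO), above every pachytene array. The rise was 0.75 (SE 0.15), or 1.69-fold (limma, adjusted p = 0.00584), and at so dim a level the fold is uncertain. Its second cluster, dimmer still, moved by 0.80 in the same direction. The call rested on both spermatid arrays: without the WT one the adjusted p was 0.102, and without the KO one 0.0558.

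Smc1b and Stag3, which build the meiotic axis with these kleisins, had no detectable difference between the stages. Smc1b lay at 11.20 and 10.85 in WT and 11.30 and 11.04 in KO pachytene arrays. On the round spermatid arrays it was 11.22 (WT) and 11.26 (KO). The spermatid arrays fell inside the pachytene range (difference 0.14, 95% interval -0.18 to 0.47, limma adjusted p = 0.502). Stag3, the germ cell form of the Stag subunit, was at 12.52, 12.25, 12.50 and 12.59 on the same pachytene arrays, against 12.28 (WT) and 12.31 (KO) in round spermatids. These spermatid values also fell within the pachytene range, near its lower end (-0.17, 95% interval -0.45 to 0.11, adjusted p = 0.339). Both intervals stop short of a 2-fold change in either direction. Transcripts of these meiotic subunits were thus measured on the round spermatid arrays at intensities that overlapped those of the pachytene arrays.

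Among the general subunits, Stag2 had the largest rise of all 10 members. It lay at 6.81 and 6.74 in WT and 7.66 and 6.53 in KO pachytene arrays, against 8.93 (WT) and 8.95 (KO) in round spermatids. The groups did not overlap, though the KO pachytene arrays were 1.13 apart. The rise was 2.00 (SE 0.27, 95% interval 1.36 to 2.64), or 4.00-fold (limma, adjusted p = 9.88e-04), which ranked 89 among the 17925 tested genes by absolute size. On 3 of the 4 pachytene arrays it lay below 7, in the dim part of the range, so the size of the fold is uncertain. Of 624 X-linked genes, 40.2% passed as higher, so a rise is common on that chromosome.

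Smc1a, the other X-linked member, differed much less. It was at 7.14 and 7.06 in WT and 7.17 and 7.34 in KO pachytene arrays, against 7.41 (WT) and 7.53 (KO) in round spermatids. Both spermatid arrays lay above every pachytene array, but the difference of 0.29 (SE 0.11) did not pass in limma (adjusted p = 0.0706). It passed after a second quantile normalization (0.34, adjusted p = 0.0263), with arrays centred on their medians (0.33, 0.0364) and without KO pachytene array 1 (0.26, 0.0399). Under none of the other alternatives, out of 15 in all, did it pass.

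Smc3 is the SMC partner of both Smc1a and Smc1b. It lay at 9.24 and 9.56 in WT and 9.66 and 8.88 in KO pachytene arrays, against 10.70 (WT) and 10.66 (KO) in round spermatids. The spermatid arrays were again close together and above the rest, a difference of 1.35 (SE 0.21) or 2.54-fold (limma, adjusted p = 0.00177). Rad21, the general kleisin, lay at 10.02 and 10.17 in WT and 10.29 and 9.77 in KO pachytene arrays, against 10.98 (WT) and 10.91 (KO) in round spermatids. It rose by 0.89 (SE 0.16) or 1.85-fold (adjusted p = 0.00312). Without the WT round spermatid array the same difference of 0.88 no longer passed (adjusted p = 0.0547).

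Stag1, the autosomal paralog of Stag2, did not pass in either direction. It was at 9.46 and 9.33 in WT and 9.48 and 8.76 in KO pachytene arrays, against 9.08 (WT) and 8.80 (KO) in round spermatids. KO pachytene array 2 lay below both spermatid arrays and the other pachytene arrays above them (-0.31, SE 0.19, limma adjusted p = 0.260). Without that array the difference was -0.47 and passed as lower (adjusted p = 0.0204).

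Sgo2a, which guards centromeric Rec8 through the first division, fell. It was at 11.67 and 11.87 in WT and 11.79 and 11.69 in KO pachytene arrays, a narrow band, against 10.52 (WT) and 10.69 (KO) in round spermatids. All pachytene arrays lay above both spermatid arrays, and the fall was -1.15 (SE 0.12), or 2.22-fold (limma, adjusted p = 3.08e-04). The difference was -1.25 within WT and -1.05 within KO.

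**Figure D2:**
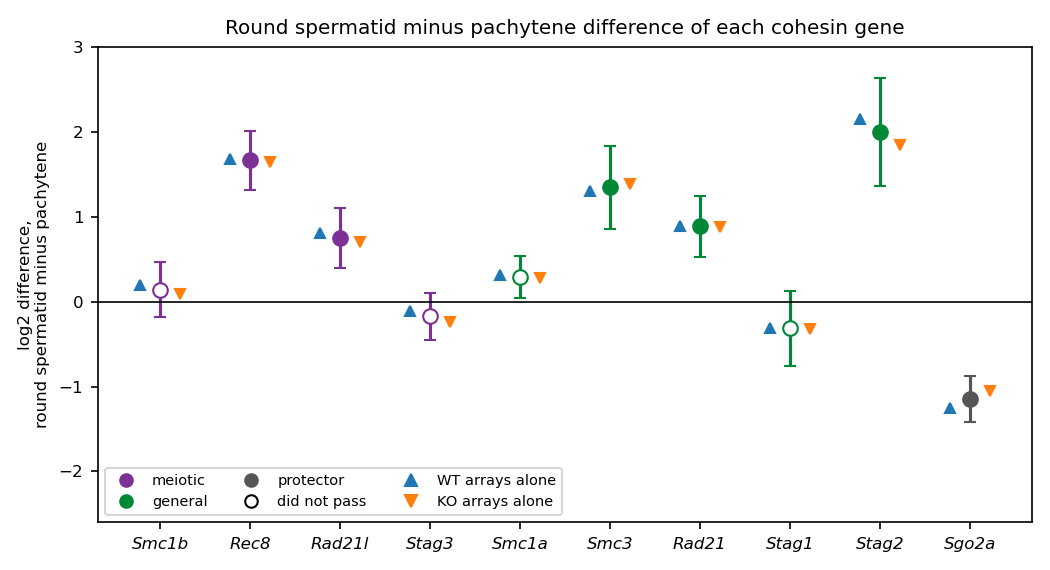
Round spermatid minus pachytene difference (log2, vertical axis) of each cohesin gene from the additive fit, with 95% intervals; filled circles passed at an adjusted p of 0.05, and triangles give the difference within WT (up) and KO (down) arrays alone. Rec8 at 1.67, Smc3 at 1.35 and Stag2 at 2.00 lie highest and Sgo2a at -1.15 lowest, and each class spans rises and values near 0.

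The changes are set side by side by role, without a test between genes. The median difference was 0.45 over the 4 meiotic and 0.89 over the 5 general subunits, against -0.06 over all tested genes. The gap between these medians was -0.44 over both genotypes, -0.39 in WT and -0.49 in KO. The ranges overlapped, from -0.17 to 1.67 for the meiotic and from -0.31 to 2.00 for the general subunits. No test was made of these medians.

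Among the kleisins all 3 passed as higher, and Rec8 changed by 0.78 more than Rad21 (0.79 in WT, 0.77 in KO). Rad21l and Rad21 lay close together, at -0.13 (Rad21l minus Rad21). Among the Stag subunits, Stag2 stood apart: Stag3 minus Stag2 gave -2.17 and Stag1 minus Stag2 gave -2.31, whereas Stag3 and Stag1 were only 0.14 apart. The Smc1 paralogs were also close, at -0.15 (Smc1b minus Smc1a), and both changed less than their partner Smc3, by -1.20 for Smc1b and -1.05 for Smc1a. These differences between genes were not tested, but each kept its sign within both genotypes. They compare changes within genes, since intensities of different clusters are not on a common scale.

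Each genotype has a single round spermatid array, so the tests within a genotype borrow all of their spread from the pachytene pairs and say nothing of the spread among spermatid arrays. Within WT alone, 4 members rose and 1 fell (limma, fit with 4 groups), against 20% of all tested genes passing. Within KO, 3 rose and 1 fell, against 15.5%. Under that assumption Rec8, Smc3 and Stag2 passed as higher and Sgo2a as lower in both genotypes, and Rad21 passed in WT (0.89, adjusted p = 0.0455) but not in KO (0.88, adjusted p = 0.0546). Its interaction was -0.0047 (SE 0.35), so a difference between the genotypes was not detectable. With arrays centred on their medians, Smc3 passed neither within WT (1.38, adjusted p = 0.0521) nor within KO (1.39, 0.0654), Stag2 no longer passed within KO (1.85, 0.0575) and Rad21 no longer passed within WT (0.97, 0.0687). With either WT pachytene array left out, which leaves 1 WT array per cell type, Smc3 (1.15 and 1.46) and Rad21 (0.81 and 0.96) no longer passed within WT. In the interaction test 0 of 10 members passed, 0 had an unadjusted p under 0.05, and the adjusted p was 1.00 for each; 0% of all tested genes passed. The interaction values ran from -0.30 for Stag2 to 0.21 for Sgo2a, and the 95% intervals of Stag2 (down to -1.64) and Smc3 (up to 1.15) reached a 2-fold difference.

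No member differed detectably between KO and WT. In pachytene spermatocytes 0 of 10 passed (limma, adjusted p = 1.00 for each, 0 at an unadjusted p under 0.05), as did 0% of all tested genes. Differences ran from -0.28 for Stag1 to 0.33 for Rad21l. The 95% interval of Stag2, with a lower bound of -0.45, reached a 2-fold rise, and those of the other 9 members did not. Only Smc1a had both KO arrays above both WT arrays (7.17 and 7.34 against 7.14 and 7.06), an order seen for 14.9% of all genes. No member had both KO arrays below both WT arrays, against 10.2% of all genes.

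Over both cell types, with 3 KO and 3 WT arrays, again 0 of 10 passed and 0 had an unadjusted p under 0.05 (limma, 0% of all tested genes passed). Rad21l had the largest difference, 0.30 (95% interval -0.04 to 0.63, adjusted p = 0.892), and lay higher in KO by 0.33 in pachytene and 0.22 in round spermatids. Stag1 was next at -0.28 (-0.69 to 0.14, adjusted p = 0.892), with -0.28 in each cell type. Rec8, at 0.01 (-0.31 to 0.33), was the closest to 0. Each of the 10 intervals of this comparison, which are not adjusted for the number of genes, stopped short of a 2-fold change, with outer bounds of -0.69 and 0.82.

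All 4 meiotic subunits had differences above 0 in pachytene cells (median 0.15), and 3 of 5 general subunits lay below 0 (median -0.06). None of these passed, and the median over all tested genes was 0.03. Markers of other testis cells did not all lie on the same side. Above 0 were 10 of 10 spermatogonial markers (median 0.14), 9 of 10 Sertoli markers (0.12) and 4 of 6 peritubular and vessel markers (0.08). So were 2 of 4 macrophage and blood markers (median -0.0008) and only 1 of 6 Leydig markers (-0.12). None of these markers passed, and their part in the members' values was not tested. In round spermatids, with 1 array each, 0 of 10 members were 2-fold apart, against 0.385% of all tested genes. The fit with 4 groups, which lends these lone arrays the pachytene spread, called 0 of 10 members there (limma, 0 at an unadjusted p under 0.05) and 0% of all tested genes (320 at an unadjusted p under 0.05). Its 95% intervals reached a 2-fold change for Stag1 (down to -1.08) and Stag2 (up to 1.12). The differences there ran from -0.28 for Stag1 to 0.22 for Rad21l. Rec8 and Stag2, which rose most between stages, differed by -0.01 and 0.02.

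**Figure D3:**
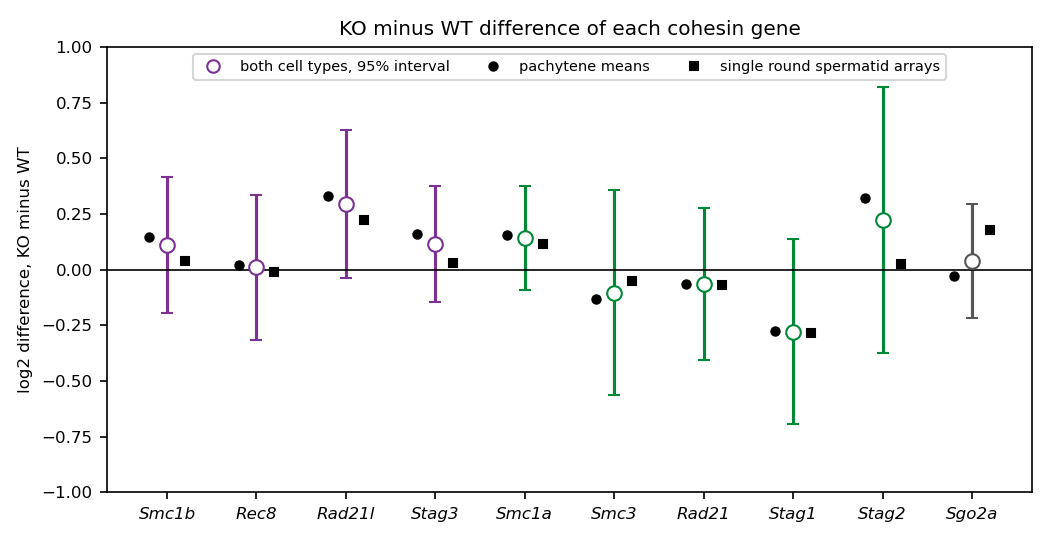
KO minus WT difference (log2, vertical axis) of each cohesin gene over both cell types with 95% intervals (open circles), beside the difference of the pachytene means (black circles) and of the single round spermatid arrays (black squares). Every interval includes 0, and Rad21l at 0.30 and Stag1 at -0.28 lie farthest from it.

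The width of these intervals reflects a gene's spread between replicate arrays, which limma draws toward the spread over all tested genes. The KO pachytene arrays differed by 1.13 in Stag2, 0.78 in Smc3, 0.72 in Stag1 and 0.53 in Rad21, each higher on array 1, while the WT pair differed by 0.06, 0.31, 0.12 and 0.15. Smc1b and Rec8 differed more between the WT arrays (0.35 and 0.37) than between the KO arrays (0.26 and 0.33). Of the 10 members, 8 lay higher on KO array 1 than on KO array 2. The median gap between the KO arrays was 0.38 over members and 0.23 over all tested genes, and between the WT arrays 0.23 and 0.10. The summed intensity of 12 round spermatid markers was 48858 on KO array 1 and 38916 on KO array 2, against 43181 and 41189 on the WT pachytene arrays. Its part in the gap was not tested.

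Markers of the labelled cell types followed the labels: 9 of 13 pachytene markers fell and 9 of 12 round spermatid markers rose in round spermatids, and none rose or fell the other way. Both lists were bright on arrays of both cell types. Summed intensity of the 13 pachytene markers was 59851.7 to 65532.2 on pachytene and 39569.3 to 39734.5 on round spermatid arrays. For the 12 round spermatid markers it was 38915.8 to 48858.3 and 64865.7 to 66454.5. Carry-over between the cell types was not tested. Every listed marker with a single-gene cluster was above 0 on all arrays; Rhox5, Insl3, Lhcgr, Hbb-bs and Hba-a1 were not matched to one. Markers of other testis cells moved as well. Summed intensity of 6 Leydig markers was 4689 to 6905 on pachytene and 1044 to 1277 on round spermatid arrays, and 6 of 6 fell. For 10 Sertoli markers it was 7289 to 9072 and 4013 to 4825, and 7 fell and none rose. For 10 spermatogonial markers it was 4116 to 4759 and 3502 to 3833, with 1 higher and 1 lower. For 6 peritubular and vessel markers it was 1558 to 1790 and 2827 to 3622, with 1 higher (Dcn), and for 4 macrophage and blood markers 436 to 480 and 536 to 597, with 1 higher. The part of such cells in the members' changes was not tested. The targeted gene shares its cluster with the readthrough gene Gm28043. It was at 8.51 and 8.86 in WT and 7.86 and 8.05 in KO pachytene arrays, against 7.78 (WT) and 7.50 (KO) in round spermatids. The labels do not place that cluster relative to the deleted part.

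No gene on the list of cohesin loading and release or on that of cohesin acetylation passed as higher in round spermatids. Of 6 loading and release genes, 2 fell and none rose in round spermatids, where 17.1% of all tested genes fell and 17.8% rose. The 2 were the release cofactors Pds5b at -0.61 (limma, adjusted p = 0.00491) and Pds5a at -0.42 (0.0343). Within WT and KO alone, Pds5b was at -0.67 and -0.54 and Pds5a at -0.28 and -0.55. Both were called only in the fit over both genotypes. Over both genotypes the loader Nipbl, at -0.26, and the release factor Wapl, at -0.16, did not pass. Of 3 acetylation genes only Esco1, which acetylates Smc3, passed, at -0.68 (0.0160), and likewise only over both genotypes. The median over these lists was -0.21 and 0.08, against -0.06 over all tested genes.

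Of 14 genes of centromere protection and cleavage, 13 were tested, and 2 rose and 3 fell, with a median of -0.14; over all tested genes 17.8% rose and 17.1% fell, shares near those of this list. The phosphatase subunit Ppp2r5a, of the family that shugoshin recruits, rose by 1.19 (limma, adjusted p = 0.00243). Its values were 7.56 and 7.41 in WT and 8.08 and 7.56 in KO pachytene arrays, against 9.02 (WT) and 8.67 (KO) in round spermatids. The rise was 1.53 within WT and 0.85 within KO, each from a single round spermatid array, and the KO difference alone did not pass. Ppp2r5a has 4 clusters, of which the brightest was used and the others are not shown. The family did not move together: Ppp2r5b passed as lower at -0.50 (limma, adjusted p = 0.00589). Ppp2r5c at -0.14, Ppp2r5d at -0.06 and Ppp2r5e at -0.17 did not pass. Securin, Pttg1, which restrains separase, fell by 0.69 (0.00222), and Cdc20, which triggers its destruction, fell by 0.52 (0.0214). Separase itself, Espl1, was at -0.14, Sgo1 at -0.10 and Meikin, a meiotic kinetochore regulator that works with shugoshin, at -0.39, and none passed. Sgo2b, between 4.64 and 4.88 on the arrays, was below the filter and was not tested.

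Unlike Smc3, more genes of the other SMC complexes fell than rose, where 17.1% of all tested genes fell and 17.8% rose. Of 8 condensin genes, 5 fell and none rose (median -0.50), though 1 of 8 passed as lower within WT and 1 within KO (medians -0.56 and -0.46). The changes were led by Ncapd3, a condensin II subunit, at -1.41 (limma, adjusted p = 1.80e-04), with Smc4 at -0.65 and Ncaph2 at -0.64. Ncapd3 lay at 10.04, 9.88, 9.69 and 9.56 across the pachytene arrays, against 8.46 and 8.31 on the spermatid arrays. Of 9 genes of the Smc5/6 complex, which acts in repair, 5 fell and 1 rose (median -0.64). Within WT 4 and within KO 3 of the 9 passed as lower. Nsmce4a fell by 1.53, the loading factor Slf2 by 1.49 and Nsmce2 by 0.75, while Nsmce1 rose by 0.66. Neither Ctcf, the factor that stops cohesin at loop anchors, at 0.03, nor its germ cell paralog Ctcfl, at -0.05, passed. In KO against WT over both cell types, none of these genes passed (limma).

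**Figure D4:**
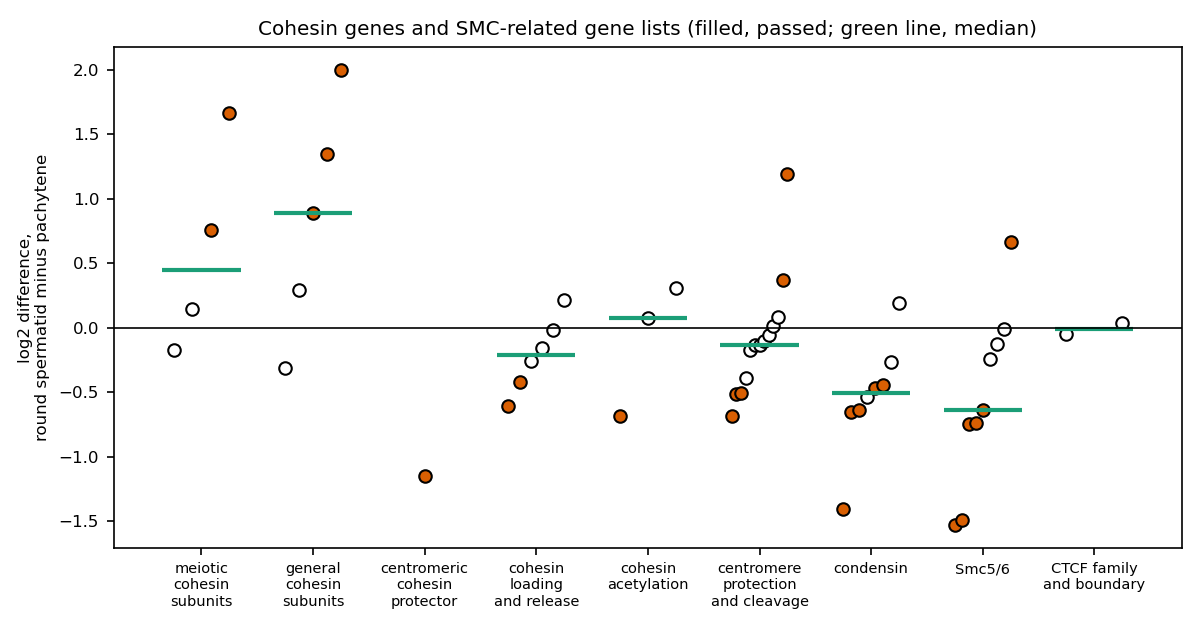
Round spermatid minus pachytene difference (log2, vertical axis) of every tested gene of each list, with filled points for genes that passed at an adjusted p of 0.05 and a line at the list median. Condensin (median -0.50) and Smc5/6 genes (median -0.64) lie mostly below 0, and the general cohesin subunits (median 0.89) mostly above.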

How the data were processed

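Intensity per transcript cluster was deposited on a linear scale for 6 arrays; per the submitters' processing notes, the authors made it with RMA in Affymetrix Expression Console 1.1. Its options and genome build were not given in the sources used here. Tests had been planned for log2 values, and each deposited intensity was converted to log2 first. Of 35556 clusters, 21789 had 1 gene symbol in the platform annotation, 1621 several and 12146 were not listed. The cluster of highest mean stood for a gene, and the 17925 genes that reached log2 6 on 1 array or more entered the tests. Median intensity was 197 to 218 per array; the number of arrays limits the precision.

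Tests used limma 3.58.1 in R 4.3.3 (lmFit, eBayes, Benjamini-Hochberg, threshold 0.05) and were tested on simulated data. The additive fit had 3 residual degrees of freedom. The fit with 4 groups had 2, all from pachytene arrays, whose spread lone spermatid arrays were assumed to share. The members, gene lists and motifs were chosen with earlier results of these data known. Named are all members and, per list, up to 3 genes of largest difference among those passing. Nipbl, Wapl, Espl1, Sgo1, Sgo2b, Meikin, Ppp2r5b, Ppp2r5c, Ppp2r5d, Ppp2r5e, Nsmce1, Ctcf, Ctcfl and Dcn were named after their values were seen. Promoters are from RefSeq, GRCm38.p6.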

Additional observations from a re-analysis of the deposited data

How the results depend on the processing

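Across 15 alternatives to the additive fit over both genotypes, all 10 members kept the direction of their difference between round spermatids and pachytene cells. Rec8, Smc3, Stag2 and Sgo2a passed under each. Within a genotype, Stag3 in WT (up to 0.03) and Smc1b (down to -0.04) and Stag1 (up to 0.04) in KO changed sign under an alternative. The additive fit called 6 members, and 4 to 7 with an array left out. Within WT, 5 members were called and 3 to 6 with an array left out. With arrays centred on their medians the counts were 3 in WT and 2 in KO, against 4 in KO as reported. The gap between the class medians of -0.44 ran from -0.54 to -0.34 with an array left out, and from -0.54 to -0.24 over all alternatives. No alternative called a member for KO against WT or for the interaction.

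The replicate numbers of the titles as a block called 6 members over both genotypes, 6 in WT, 5 in KO and 0 for each genotype comparison. Deviations of same-numbered pachytene arrays correlated at -0.23 across genes. With a single pair of arrays per genotype, any difference within a pair can set the sign of this correlation. It therefore cannot decide whether the numbers given pair the arrays. Crossing the numbers reverses the sign of that correlation. No label ties the arrays so crossed, and whether they share a preparation was not tested. With the numbers crossed, chosen after the data were seen, 0 members and 88 genes passed for KO against WT in pachytene cells, against 43 with the numbers as given and 0 without a block.

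Over all genes, the additive count of 6255 was 2780 without the WT and 3578 without the KO round spermatid array. The WT count of 3577 ran from 1414 to 5499 and the KO count of 2786 from 1650 to 3881 with an array left out. For KO against WT over both cell types, 0 genes passed as reported and at most 18 under an alternative, without KO pachytene array 1. With 1 spermatid array per genotype, array number limits the precision of each difference between the cell types.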

Other observations

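Genes with the most similar pattern over the 6 arrays differed between the meiotic subunits. Clone or predicted gene names and olfactory or vomeronasal receptors were left out of this search. By root mean square difference of centred log2 values, nearest to Rec8 were Tescl (0.053), the sperm calcium channel gene Catsper1 (0.061) and Amer2 (0.062), which differed between the cell types by 1.58, 1.56 and 1.67. Nearest to Stag3 were the chaperone gene Fkbp4 (0.030), Dhx58 (0.031) and Gtf2ird1 (0.038), and nearest to Smc1b were Mfsd14b (0.026), Ndufb8 (0.041) and the autophagy kinase gene Ulk2 (0.054). Nearest to the dim Rad21l, and less close, were H2-Aa (0.099), Mir670hg (0.100) and H2-Ab1 (0.101). None of the genes named here was among the nearest to more than 1 of the 4.

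Among tested genes with a RefSeq promoter, 1138 held the E2F core TTCCCGC in a promoter and 13018 did not. Between the cell types, 17.8% of those with it rose in round spermatids and 23.8% fell, against 18.5% and 16.9% of those without it. The medians of the difference were -0.07 and -0.05. Among the 8 cohesin promoters no gene with the core passed as higher in the fit as reported, though Smc1a did under some alternatives. Over all genes the share that rose was close with and without these letters, and the share that fell was larger with them. These shares are descriptions, with no test.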
